A study of Homo sapiens with 4 samples.

Results

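Histone lysine methyltransferases and demethylases write and erase methyl groups on the tails of histones H3 and H4. Trimethylation of H3K4 marks active promoters, H3K36 and H3K79 methylation accompany transcribed gene bodies, and H3K9, H3K27 and H4K20 methylation are linked to silent or compacted chromatin. Most writers carry a SET domain, DOT1L is the exception among the enzymes described here, and the erasers are either amine oxidases (the KDM1 pair) or jumonji-domain dioxygenases (KDM2 to KDM6). In acute leukemia with MLL rearrangement the family is of particular interest, because MLL itself (now KMT2A) is an H3K4 methyltransferase and DOT1L is recruited by several of its fusion partners.

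The 92 probes described here were chosen by gene name. They carry the names of SET-domain methyltransferases of the MLL, SETD, SMYD, EZH, EHMT, SUV39H, SUV420H, SETDB and NSD families, ASH1L, SETMAR or DOT1L (35 genes) or of KDM1 to KDM6 demethylases (15 genes, with KDM5D left out), 50 genes of the 27193 gene names and 92 of the 34127 non-control probes on the array. Other enzymes with related domains, such as the PRDM genes, C5orf35 and further jumonji genes, were placed in a separate list with the partner proteins. The samples were THP1 cells, a human monoblastic AML cell line that carries the fusion MLL-AF9, harvested on day 2 after transfection with 30 nM of either miR-511 mimic, a synthetic double-stranded RNA that supplies miR-511-5p, or negative control #1 mimic. Each treatment was hybridized to 2 arrays, 1 in each of 2 independent experiments, so every comparison below is of 2 arrays with 2, in a single cell line and without untreated cells. All values are log2 of the normalized spot intensity, and log2FC is the mean of the miR-511 mimic arrays minus the mean of the control mimic arrays.

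The mimic supplies the mature miRNA printed next, which RefSeq places on chromosome 10 at chr10:17845122-17845142 of GRCh38.p14, plus strand. The capitals mark the seed, bases 2 to 8, which pairs with target transcripts.
hsa-miR-511-5p: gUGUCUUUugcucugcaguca

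KDM2B, a demethylase of H3K36 that also brings a Polycomb complex to CpG islands, was measured by a pair of 60-base probes that lie 35 bases apart on chromosome 12, minus strand, at chr12:121868175-121868234 and chr12:121868080-121868139 of hg19. They are shown because they gave different answers. No base is capitalized in them.
A_33_P3529860: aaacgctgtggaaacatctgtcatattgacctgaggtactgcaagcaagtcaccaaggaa
A_33_P3529859: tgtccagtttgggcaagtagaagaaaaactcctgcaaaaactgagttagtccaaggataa

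For MLL, the gene at the 5′ end of the THP1 fusion, 3 of its 4 probes are shown for their position along the gene, at chr11:118348856-118348915, chr11:118361998-118362491 (a span wider than the probe, so the probe crosses an intron) and chr11:118362577-118362636 of hg19, plus strand. No base is capitalized in them.
A_33_P3390570: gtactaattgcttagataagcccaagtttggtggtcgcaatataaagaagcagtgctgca
A_24_P136402: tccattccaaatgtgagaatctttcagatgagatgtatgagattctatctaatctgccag
A_33_P3390576: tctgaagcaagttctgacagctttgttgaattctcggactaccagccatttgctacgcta
The 7 bases AAAGACA, complementary to the seed of miR-511-5p, occurred as printed in 0 of the 92 member probes and in 331 of all 34127 probes (0.97%). On either strand they occurred in 1 member probe (1.09%, a SMYD3 probe, on the opposite strand) and in 661 of all probes (1.94%). This describes the letters of the probes and not those of whole transcripts, which were not searched. The probes of the family had a median GC content of 40%, with 43.3% over all probes.

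Transcripts of nearly the whole family were detected in THP1. Of the 92 probes, 88 (95.7%) were well above background on all 4 arrays, against 63.4% of all probes. The exceptions were the X-linked H3K27 demethylase KDM6A, with 1 probe above background on no array and 1 on a single array, on which its spot was marked as an outlier and left out, SMYD1, known as a striated muscle methyltransferase, above background on a single array, and 1 of the NSD1 probes, above background on 3. KDM6A and SMYD1 therefore have no tested probe, and 89 probes of 48 genes were tested. The 11 monoblastic markers that the array names (among them CD14, CD33, MPO and SPI1) were above background on all 4 arrays, whereas the NK cell genes KLRD1, NCAM1 and NCR1 were on none. Of the T cell genes, CD3D and CD8A were above background on all arrays and CD3G on none, and the summed intensity of the T cell list ranged from 158.2 to 169.8 over the arrays, compared with 345000 to 402000 for the monoblastic list. All samples were of a single cell line, so these values describe its RNA and not proportions of cell kinds.

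No member passed a Benjamini-Hochberg adjusted p of 0.05 in limma (smallest adjusted p = 0.9999), nor did any other probe on the array. At the unadjusted threshold of 0.05, 4 of the 89 member probes passed, while 2.2% of all 22638 tested probes did. The study used this threshold together with a t-test over identical replicate probes, which was not required here. The probes of KDM2B and KDM3A were lower with miR-511 mimic (0.932% of all tested probes passed in this direction), and those of NSD1 and MLL4 were higher (1.27%). The NSD1 probe entered the test through the miR-511 mimic arrays, since only 1 of its control values was well above background, and with a filter that asked for all 4 arrays 3 of 88 member probes passed, beside 1.82% of all tested probes. The median log2FC over the 89 probes was 0.0057, with 46 higher and 43 lower, beside a median of 0.0098 over all tested probes. Differences of more than 1 on the log2 scale were seen for 3 member probes (KDM2B, SUV420H2 and MLL3), and for 0.707% of all tested probes. The values of the treatments did not overlap for 23 member probes, 14 of them higher and 9 lower with miR-511 mimic, while 25.7% of all tested probes did not overlap (15.6% higher and 10.1% lower).

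**Figure D1:**
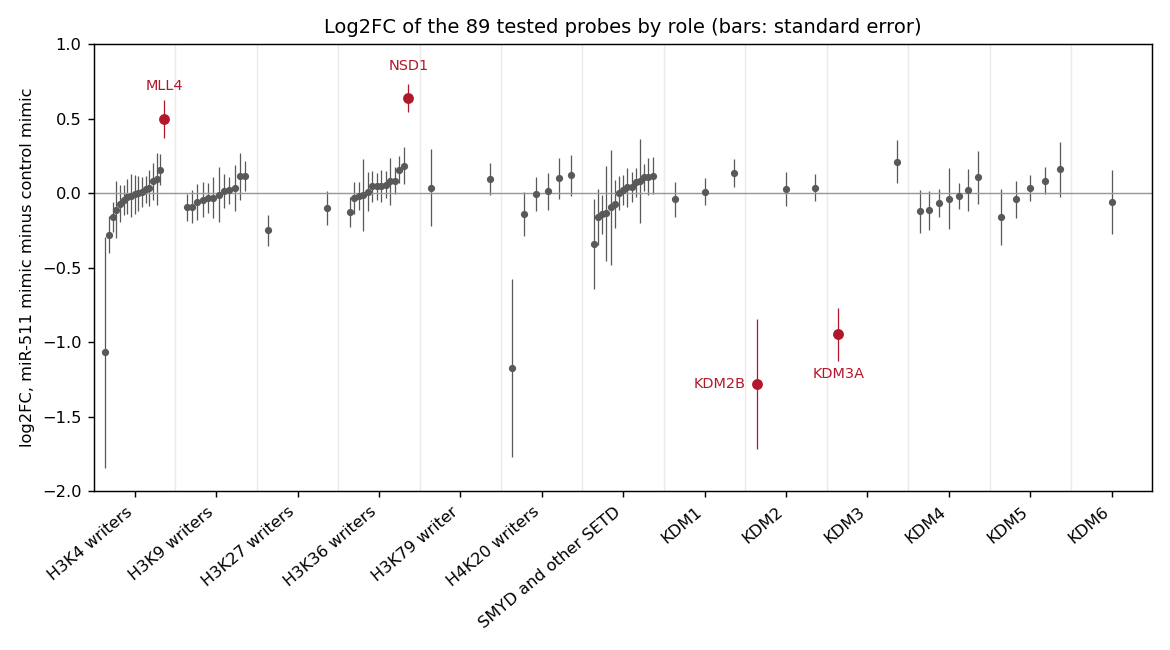
Log2FC of miR-511 mimic minus control mimic (vertical axis) for the 89 tested probes, grouped by the histone residue of the writers and by the KDM family of the erasers. Bars are limma standard errors and red points are the 4 probes past the unadjusted threshold. Most of the 89 probes lie close to 0, the 2 of the KDM3 group lie at -0.95 and 0.21, and the 3 probes below -1 are those of KDM2B, SUV420H2 and MLL3.

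The array that carried miR-511 mimic in experiment 1 stood apart at its margin, which is where the members with the largest negative differences lie. Spots are printed in 532 rows and 85 columns. Among tested probes printed once, 36% of the 225 in column 1 lay more than 1 log2 unit below the median of the other 3 arrays on this array. On the other arrays the share in column 1 was between 0.444% and 4.44%. Further from the margin the share on the miR-511 mimic array of experiment 1 was 8.47% in columns 2 and 3, 4.68% for other spots within 5 of an edge and 0.809% for the 18676 inner spots. The control array of experiment 2 had a smaller pattern. There the share was 1.8% for other spots within 5 of an edge, 0.38% for inner spots, and 5.16% in column 80. These position patterns were noticed after the values of the members had been seen, and the limit of 1 log2 unit and the classes were set then.

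Of the 88 tested member probes printed once, 3 lie in column 1 and 2 in columns 2 and 3. The probes in column 1 are those of KDM2B, SUV420H2 and MLL3, and the KDM3A probe lies in column 3. These 4 were also the member probes that stood more than 1 log2 unit below the other arrays on the miR-511 mimic array of experiment 1, and on each other array 0 members did. The part of the spot position in the differences of these genes was not tested. When every probe with a spot within 5 of an edge was left out, 79 member probes remained. Of these, 2 passed the unadjusted threshold, both of them higher (NSD1 and MLL4), beside 2.27% of the 18837 probes tested in this way. At the adjusted threshold 0 passed. The passing probes of KDM2B and KDM3A were among those left out, so this setting did not test them.

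**Figure D2:**
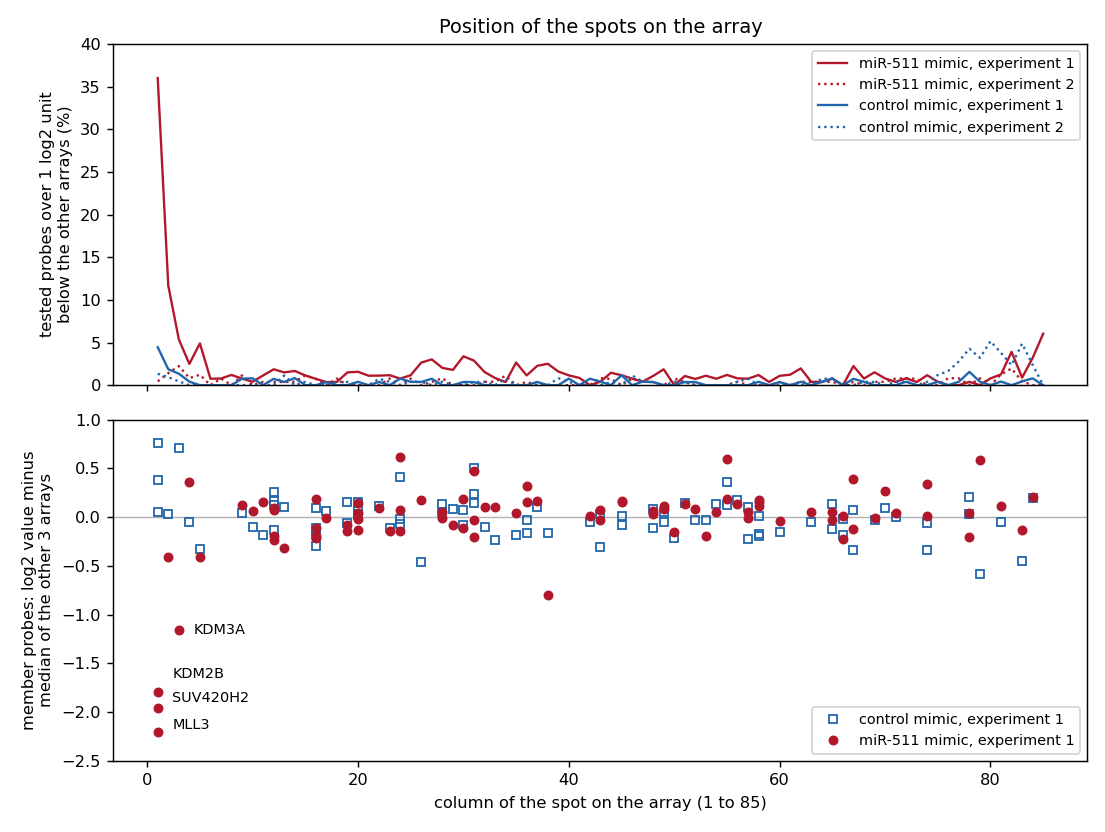
Upper panel: share of tested probes (percent) that lay more than 1 log2 unit below the median of the other 3 arrays, by the column of the spot, for each array. Lower panel: the same deviation (log2) of each member probe on the arrays of experiment 1. The share reaches 36% in column 1 of the miR-511 mimic array of experiment 1, where the probes of KDM2B, SUV420H2 and MLL3 lie. On the control array of experiment 2 it reaches 5.16%, in column 80.

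The erasers include both members that passed the threshold with lower values. For KDM2B, probe A_33_P3529860 gave 8.76 and 9.98 with miR-511 mimic in experiments 1 and 2 and 10.74 and 10.56 with the control mimic. Both miR-511 mimic arrays were below both control arrays, and the distance was -1.97 in experiment 1 and -0.59 in experiment 2. The log2FC was -1.28 ± 0.43 (SE), a 2.43-fold lower intensity (limma, unadjusted p = 0.0403, adjusted p = 0.9999). The second probe, A_33_P3529859, gave 9.38 and 9.44 with miR-511 mimic and 9.40 and 9.35 with the control mimic. Its log2FC was 0.04 ± 0.09 (SE; unadjusted p = 0.703), and its values overlapped between the treatments. The 2 probes thus differed by 1.32 in log2FC, the widest range between probes of any gene in the family.

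The call for KDM2B depended on the arrays and on the model. Without the miR-511 mimic array of experiment 1 the log2FC of A_33_P3529860 was -0.67 (limma, unadjusted p = 0.0143), in which the lone miR-511 mimic array was taken to vary like the control arrays. Without the control array of experiment 1 or of experiment 2 the unadjusted p was 0.130 and 0.0972, and with the experiment as a block it was 0.053 (in that fit, 4 member probes and 3.95% of all tested probes passed). Over all alternatives run for this probe, the unadjusted p ranged from 0.000412 to 0.172. In experiment 2 the tested probes of column 1 had a median log2 difference of -0.02, and 6.67% of them lay below -0.5, where KDM2B lay, compared with 2.93% of the inner spots and 3.19% of all spots.

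KDM3A, an H3K9 demethylase induced by hypoxia, gave 6.80 and 7.25 with miR-511 mimic and 7.96 and 7.98 with the control mimic at its single probe. The treatments did not overlap, with differences of -1.15 in experiment 1 and -0.74 in experiment 2. The log2FC was -0.95 ± 0.18 (SE), a 1.93-fold lower intensity (limma, unadjusted p = 0.00535, adjusted p = 0.9999). Without the miR-511 mimic array of experiment 1 it was -0.73, in a fit that held a lone miR-511 mimic array. In a plain t-test on all arrays KDM3A did not pass (unadjusted p = 0.0506). In experiment 2, 6.18% of the tested probes of columns 2 and 3 lay below -0.5, compared with 2.93% of the inner spots. Its paralog KDM3B differed in the other direction without passing the threshold, with 12.53 and 12.21 under miR-511 mimic and 12.17 and 12.15 under the control mimic (log2FC 0.21 ± 0.14). KDM2A, the other H3K36 demethylase of the KDM2 pair, had a log2FC of 0.03 ± 0.12.

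**Figure D3:**
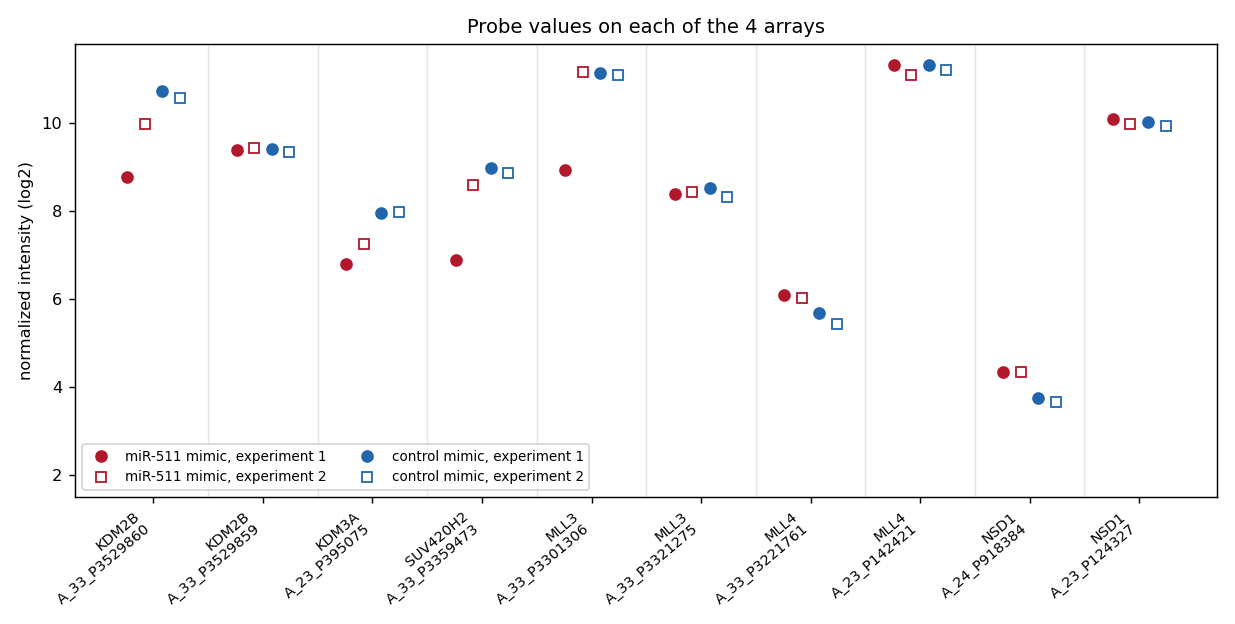
Normalized intensity (log2, vertical axis) on each of the 4 arrays for both probes of KDM2B, MLL3, MLL4 and NSD1 and for the single probes of KDM3A and SUV420H2. Filled symbols are experiment 1, open symbols experiment 2, red miR-511 mimic and blue control mimic. The MLL3 probe A_33_P3301306 is low on the miR-511 mimic array of experiment 1 (8.94) and between 11.10 and 11.16 on the others, and the second probe of KDM2B, MLL3, MLL4 or NSD1 differs by at most 0.07 in log2FC.

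None of the remaining erasers passed the threshold. KDM1A, the amine oxidase LSD1 that acts on H3K4, gave 9.77 and 9.79 with miR-511 mimic and 9.80 and 9.74 with the control mimic (log2FC 0.01 ± 0.09), and the probes of its relative KDM1B gave -0.04 and 0.13. The 7 probes of the KDM4 group, which demethylates H3K9 and H3K36, ran from -0.12 to 0.11. At KDM4B, probe A_33_P3319920 gave 12.88 and 12.67 under miR-511 mimic and 12.87 and 12.63 under the control mimic. Here the experiments lay further apart than the treatments.

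The 5 probes of the H3K4 demethylases KDM5A, KDM5B and KDM5C ran from -0.16 to 0.16. KDM5A gave 4.57 and 4.71 with miR-511 mimic and 4.26 and 4.71 with the control mimic (log2FC 0.16 ± 0.19), so its difference came from experiment 1 alone. KDM5B at A_32_P70724 gave 12.17 and 12.00 with miR-511 mimic and 12.22 and 12.04 with the control mimic (log2FC -0.04 ± 0.12). KDM6B, the inducible H3K27 demethylase also called JMJD3, gave 5.21 and 4.75 with miR-511 mimic and 4.87 and 5.21 with the control mimic. Its difference was 0.34 in experiment 1 and -0.46 in experiment 2, which left a log2FC of -0.06 ± 0.22.

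Among the writers of H3K4 methylation, MLL was followed at 4 probes. A_33_P3390570 gave 11.38 and 11.22 with miR-511 mimic and 11.20 and 11.42 with the control mimic (log2FC -0.01 ± 0.13), and A_33_P3307307 gave 7.10 and 7.30 against 7.34 and 7.09 (-0.02 ± 0.14). In both, the experiments differed in sign. A_33_P3390576 gave 6.65 and 6.78 against 6.90 and 6.85 (-0.16 ± 0.10), and A_24_P136402 gave 4.08 and 4.29 against 4.40 and 4.53 (-0.28 ± 0.12). The last pair of probes, which lie within 1 kb of each other in the sequences printed above, had no overlap between the treatments, and neither passed the threshold (limma, unadjusted p = 0.187 and 0.084). With the experiment as a block, A_24_P136402 had an unadjusted p of 0.0407 (adjusted p = 0.969). After normexp background correction its log2FC was -0.05. The probes do not separate transcripts of the wild-type allele from those of the fusion where both hold their sequence.

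MLL4 (now KMT2B), an H3K4 methyltransferase of the same family, passed the threshold at 1 of 2 probes. A_33_P3221761 gave 6.08 and 6.03 with miR-511 mimic and 5.69 and 5.42 with the control mimic, so the treatments were apart in both experiments (0.39 and 0.61). The log2FC was 0.50 ± 0.13 (SE), a 1.41-fold higher intensity (limma, unadjusted p = 0.0167, adjusted p = 0.9999). The other probe, A_23_P142421, gave 11.31 and 11.09 against 11.33 and 11.21 (log2FC -0.07 ± 0.12), with overlapping values. After normexp background correction the log2FC of A_33_P3221761 was 0.22 (unadjusted p = 0.0559), and it had an unadjusted p of 0.062 without the miR-511 mimic array of experiment 1 and 0.0684 without the control array of experiment 2. Over all alternatives its p lay between 0.0144 and 0.0684.

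MLL3 (now KMT2C), which monomethylates H3K4 at enhancers, differed on a single array. A_33_P3301306, in column 1, gave 8.94 and 11.16 with miR-511 mimic and 11.15 and 11.10 with the control mimic. The miR-511 mimic array of experiment 1 was the low one, and the other 3 arrays lay within 0.07 of each other. Its log2FC was -1.07 ± 0.78, which did not pass the threshold (limma, unadjusted p = 0.239), and the difference in experiment 2 alone was 0.07. The other probe of the gene gave -0.02 ± 0.11. None of the remaining H3K4 writers passed. SETD1A gave 13.14 and 13.09 with miR-511 mimic and 13.09 and 13.09 with the control mimic (0.02 ± 0.09). The SETD7 probe A_24_P251841 gave 8.85 and 8.99 against 8.73 and 8.80 (0.16 ± 0.10). The 4 probes of MLL5, which lacks the catalytic activity of its relatives, ran from -0.0014 to 0.09.

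NSD1, a dimethyltransferase of H3K36, also passed the threshold at 1 of 2 probes. A_24_P918384, at chr5:176726576-176726635 of hg19, gave 4.34 and 4.34 with miR-511 mimic and 3.75 and 3.66 with the control mimic, with 1 control array not well above background. The log2FC was 0.64 ± 0.09 (SE; limma, unadjusted p = 0.00216, adjusted p = 0.9999), for which no fold is given because 1 control value was not well above background and the probe was tested only through the group in which it is high. The difference was similar in size in both experiments (0.59 and 0.68). The values of this probe are close to the background, and after normexp background correction the log2FC was 0.07 (unadjusted p = 0.375). It lies in column 79, where 3.2% of the 250 tested probes printed once were more than 1 log2 unit below the others on the control array of experiment 2, against 0.562% over all columns, and the part of this position was not tested. A_23_P124327, which lies 5′ of it at chr5:176722574-176722633, gave 10.08 and 9.97 with miR-511 mimic and 10.03 and 9.94 with the control mimic (log2FC 0.05 ± 0.10), and the treatments overlapped. Both KDM2B and NSD1 were chosen by the study for RT-qPCR, so they are not an independent sample of the family.

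The other H3K36 writers did not pass in the main fit. By a plain t-test WHSC1 and WHSC1L1 passed the unadjusted threshold, where 3.13% of all tested probes did. WHSC1 (now NSD2) had 5 tested probes between -0.02 and 0.08, of which A_23_P389919 gave 11.28 and 11.30 with miR-511 mimic and 11.23 and 11.23 with the control mimic. WHSC1L1 (now NSD3) had 3 between 0.0095 and 0.16. SETD2, which trimethylates H3K36, gave -0.12 ± 0.10 and ASH1L 0.08 ± 0.09. SETMAR at A_33_P3353916 gave 5.85 and 6.08 with miR-511 mimic and 5.74 and 5.82 with the control mimic (0.19 ± 0.12), but -0.03 at its other probe.

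Writers of the marks of silent chromatin had 0 probes past the threshold, among 2 tested probes for H3K27, 12 for H3K9 and 6 for H4K20. Of all tested probes 2.2% passed, so with this few probes the count is near that share. EZH2, the catalytic subunit of Polycomb repressive complex 2 that methylates H3K27, gave 12.26 and 12.09 with miR-511 mimic and 12.34 and 12.21 with the control mimic (log2FC -0.10 ± 0.12). Its paralog EZH1 gave 8.85 and 8.95 against 9.21 and 9.09, without overlap between the treatments (-0.25 ± 0.10, limma, unadjusted p = 0.0707), and passed the unadjusted threshold after normexp background correction. The 12 probes of the H3K9 writers (SUV39H1, SUV39H2, EHMT1, EHMT2, SETDB1 and SETDB2) ran from -0.10 to 0.11, the narrowest spread of the groups with 10 or more probes. The SETDB1 probe A_23_P126393 gave 14.08 and 13.88 with miR-511 mimic and 13.93 and 14.01 with the control mimic (0.01 ± 0.12).

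Of the H4K20 writers, SUV420H2 (now KMT5C), which adds the further methyl groups, was 1 of the 3 members with a difference below -1. Its single probe, in column 1, gave 6.89 and 8.60 with miR-511 mimic and 8.98 and 8.86 with the control mimic. The difference was -2.08 in experiment 1 and -0.26 in experiment 2, and the log2FC of -1.17 ± 0.60 did not pass the threshold (limma, unadjusted p = 0.119). Without the miR-511 mimic array of experiment 1 it was -0.32, and without that of experiment 2 it was -2.02. Each of these fits held a lone miR-511 mimic array. The related SUV420H1 had 3 probes between -0.14 and 0.01. SETD8 (now KMT5A), the monomethyltransferase, gave 11.22 and 10.96 against 11.05 and 10.93 at A_32_P191859 (0.10 ± 0.13) and 0.12 ± 0.14 at a probe that shares 41 bases with it, so the pair of probes is not independent.

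DOT1L, the H3K79 methyltransferase on which MLL-rearranged leukemia depends, gave 10.38 and 10.21 with miR-511 mimic and 9.92 and 10.60 with the control mimic at A_23_P101737. The difference was 0.46 in experiment 1 and -0.39 in experiment 2, and the log2FC was 0.04 ± 0.26. Its second probe gave 0.10 ± 0.11. Among the SMYD and remaining SETD genes 0 of 15 tested probes passed, beside 2.2% of all tested probes, with log2FC between -0.34 and 0.12. The lowest was SMYD3 at A_23_P51410, which gave 7.77 and 8.57 with miR-511 mimic and 8.40 and 8.62 with the control mimic (-0.34 ± 0.30). Without the miR-511 mimic array of experiment 1 it was 0.06. The other SMYD3 probe, the one with the opposite-strand match named above, gave 12.66 and 12.52 against 12.67 and 12.51 (0.0014 ± 0.11).

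Probes of the same gene often pointed in different directions, as did the experiments. Of the 27 genes with 2 or more tested probes, the probes pointed the same way in 13 and both ways in 14. The median range of log2FC within a gene was 0.15, and in 0 genes did all probes pass. These counts were not taken over all genes of the array, so they do not set the family apart. The sign was the same in both experiments for 45 of 89 member probes (50.6%, beside 51.0% of all tested probes), 23 of them higher and 22 lower. Within a treatment the arrays of the 2 experiments differed by a median of 0.14 (miR-511 mimic) and 0.12 (control mimic) over the 89 probes, beside 0.149 and 0.137 over all tested probes.

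**Figure D4:**
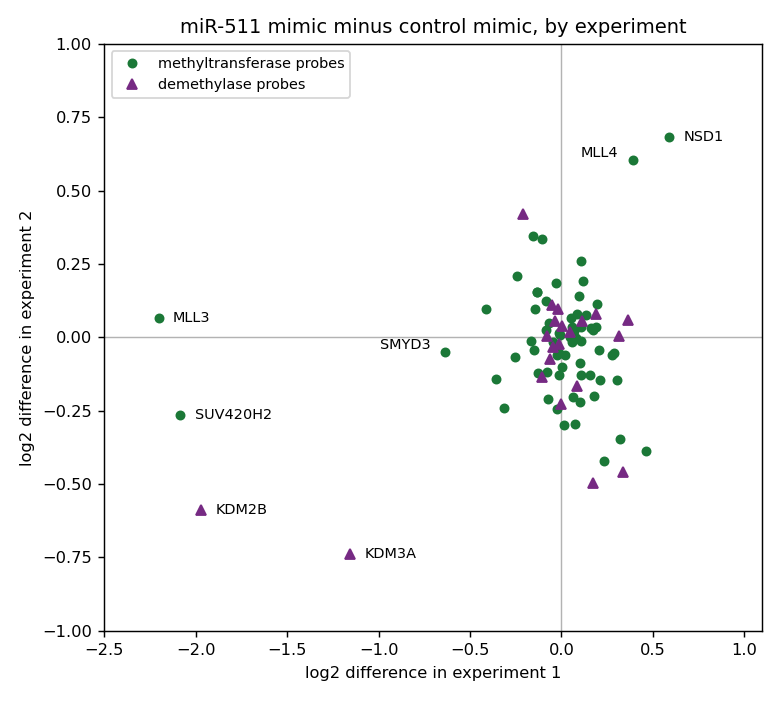
Log2 difference of miR-511 mimic minus control mimic in experiment 1 (horizontal) and experiment 2 (vertical) for the 89 tested probes, green for methyltransferases and purple for demethylases. MLL3 and SUV420H2 lie far from 0 in experiment 1 only (-2.20 and -2.08), KDM2B and KDM3A are below 0 in both, and NSD1 and MLL4 are above 0 in both.

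The partners of these enzymes, with other jumonji and PRDM genes, were examined as a further list of 57 genes with 89 probes. Of these, 84 probes of 56 genes were tested. In limma 0 passed the unadjusted threshold, beside 2.2% of all tested probes. With the experiment as a block 2 passed and by a plain t-test 4, where 3.95% and 3.13% of all tested probes passed. Of the 84 probes, 56 were higher (66.7%, beside 53.7% of all tested probes) and 28 lower, with a median log2FC of 0.03, beside 0.0098 over all tested probes. The 13 probes of Polycomb repressive complex 2 partners (such as EED, SUZ12 and JARID2) ran from -0.04 to 0.36, and the 15 of MLL and COMPASS complexes (such as WDR5, ASH2L and MEN1) from -0.13 to 0.13. The 15 probes of KDM1A and KDM2B partners, including RCOR1, PCGF1 and BCOR, ran from -0.08 to 0.16. The 15 probes of DOT1L and elongation partners, including MLLT3 (AF9), ran from -0.49 to 0.11, and AFF4 was the lowest. The largest positive value of the list, 0.73 ± 0.43, belonged to JMJD5. It gave 9.01 and 8.82 with miR-511 mimic and 8.78 and 7.59 with the control mimic, so the control array of experiment 2 was the low one. The same array was the low one for MTF2, the highest of the Polycomb partners, with 12.01 and 12.10 against 12.09 and 11.30.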

How the data were processed

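The authors hybridized RNA of 4 transfected THP1 samples to single-dye Agilent whole genome arrays and deposited 1 scanner file per array, made with Agilent Feature Extraction (version 10.5.1.1 in the submitters' processing notes, 10.7.3.1 in the file headers). The intensity the authors deposited per spot is background-subtracted within each array, with no scaling across arrays. Their table of log2 values, deposited beside the scanner files, is quantile normalized and was used as an alternative.

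Log2 of the processed intensity of the 43118 non-control spots was taken, spots marked as outliers (232 to 301 per array) were left out, arrays were quantile normalized and spots of a probe averaged. Probes well above background on both arrays of a treatment were tested (22638 of 34127; 64.8% to 69.3% were above background per array) with limma 3.58.1 in R 4.3.3, two-sided. The study's methods name limma's moderated test but no model terms, and no term for the experiment was included here. P-values are unadjusted or adjusted by Benjamini-Hochberg over all tested probes, with 4.14 degrees of freedom. An exact permutation test of 2 arrays against 2 cannot go below p = 0.333. The number of arrays limits the precision. The labels give the experiment number, so arrays of the same number are paired: their deviations from the treatment means correlated at 0.271. All arrays lay on 1 slide. On data simulated for this comparison with 22638 probes, the fit recovered after adjustment all 100 probes given a log2 change of 3, and 91 of the 100 given 1.5. The simulated noise was independent between arrays, without the pairing or the margin pattern, so these rates do not carry over to the real arrays. Of the unchanged simulated probes 4.62% passed the unadjusted threshold, beside 2.2% of all tested probes in the real data.

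Members were the probes whose gene names matched the list of enzymes given above, with KDM5D left out and PRDM genes, C5orf35 and other jumonji genes listed with the partners. Values on every array are given for probes past the unadjusted threshold and the other probes of their genes, KDM2B, NSD1 and MLL, the 5 largest rises and falls with the same sign in both experiments and above background on all arrays, and the probe with the highest mean in each role. MLL3 and EZH1 were outside this rule and were described after their values were seen. Members, lists and the rule were chosen with earlier results of these data known. Gene names are those of the files, and RefSeq (GRCh38.p14) gave current names by accession for 86 of the 92 probes, with 10 genes renamed. Coordinates are hg19, as in the files. Columns and margins of the array were examined after the values were seen. Alternatives were 75th percentile scaling, normexp (offset 50), no or a stricter filter on dim probes, marked spots kept, the deposited table, the experiment as a block, an intensity trend, a plain t-test, leaving out each array and leaving out spots near the edge. Where a probe lies in its transcript was not analysed here.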

Additional observations from a re-analysis of the deposited data

How the results depend on the processing

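Scaling by the 75th percentile, keeping marked spots, using the deposited table or fitting an intensity trend left the same 4 member probes past the unadjusted threshold. In these settings, in this order, 2.11%, 2.2%, 2.16% and 1.26% of all tested probes passed. At the adjusted threshold 0 member probes passed in any setting. After normexp background correction 0 member probes passed with higher values (NSD1 and MLL4 were lost, and EZH1 was gained with lower values). In that setting 1.17% of all tested probes passed, beside 2.2% in the main fit. Without a filter on dim probes 1 passed with lower values (3.02% of all tested probes passed in either direction). With the stricter filter 1 passed with higher values (1.82% of all tested probes in either direction). The plain t-test left 0 with lower values and 3 with higher values. KDM2B, KDM3A and MLL4 were lost, NSD1 was kept, and WHSC1 and WHSC1L1 were gained. It also called 4 cofactor probes, and 3.13% of all tested probes passed it. When spots within 5 of the array edge were left out, an alternative chosen after seeing the data, 2 member probes passed, beside 2.27% of all probes tested. Both were higher, but the passing probes of KDM2B and KDM3A were among those left out, so this setting did not test them. With the replicate block, the experiment number paired the arrays and 4 member probes passed, 3 of them shared: KDM2B was lost (unadjusted p = 0.053) and MLL at A_24_P136402 was gained, with 2 cofactor probes. Over all tested probes the block raised the calls from 498 to 894 (3.95%).

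Leaving out 1 array at a time gave 2 to 8 member probes past the threshold, 1 to 2 higher and 1 to 6 lower, and 0 to 3 cofactor probes, while 2.28% to 6.09% of all tested probes passed. The 8 came without the miR-511 mimic array of experiment 2, the fit with 6.09%, when MLL3, SETD3, SMYD3 and SUV420H2 were added, and the 2 without the control array of experiment 2, when KDM2B and MLL4 were lost. Each of these fits had a lone array in 1 treatment, so the counts do not measure the spread within that treatment. The fit without the miR-511 mimic array of experiment 2 rests on that of experiment 1. On that array the probes of MLL3 and SUV420H2 named above lie in column 1. The median log2FC of the members stayed between -0.0061 and 0.031 over the fits with 1 array left out.

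Probes whose log2FC was small changed sign in some settings. When arrays were left out, the ranges were NSD1 at A_23_P124327 from -0.011 to 0.10, MLL at A_33_P3390570 from -0.12 to 0.10, MLL at A_33_P3307307 from -0.14 to 0.11, MLL4 at A_23_P142421 from -0.18 to 0.041, DOT1L at A_23_P101737 from -0.30 to 0.38, SETDB1 at A_23_P126393 from -0.084 to 0.11, SETD8 at A_32_P191859 from -0.036 to 0.23, KDM1A at A_24_P74981 from -0.020 to 0.042, KDM4B at A_33_P3319920 from -0.097 to 0.14, KDM5A at A_33_P3382748 from -0.066 to 0.38, KDM5B at A_32_P70724 from -0.13 to 0.049, KDM6B at A_24_P942630 from -0.29 to 0.17, SMYD3 at A_32_P103291 from -0.079 to 0.082 and SMYD3 at A_23_P51410 from -0.74 to 0.058. MLL at A_33_P3307307 was 0.0049 after normexp correction, and SMYD3 at A_32_P103291 was -0.0013 with 75th percentile scaling, -0.013 after normexp correction, -0.0025 with marked spots kept and -0.0024 in the deposited table. The cause of these changes was not tested. Values near background limit what the arrays show of NSD1 at A_24_P918384 and of MLL4 at A_33_P3221761, and 2 arrays per treatment limit all of them.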
